A study of Mus musculus with 6 samples.

Results

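The 37 genes of the mouse mitochondrial chromosome were examined in the modiolus of the cochlea, the bone around which the cochlea winds and in which the spiral ganglion neurons (SGNs) lie. They were chosen by their place on the mitochondrial chromosome, where gene symbols begin with mt-, and comprise 13 protein-coding, 2 rRNA and 22 tRNA genes, out of 33676 genes with at least 1 transcript in the deposited count table. The libraries came from C57BL/6 mice, male and 8 weeks old when the model was set up, per the study's methods. Of the 6 libraries, 3 were from control mice injected with saline and 3, called degenerated, from mice injected with 1 g/kg kanamycin and, after 30 min, 0.4 g/kg furosemide, a treatment that destroys hair cells and is followed by loss of SGNs, sampled on day 30 in the study's account. The labels give the cell type as spiral ganglion neuron, but the dissected modiolus also holds Schwann cells, bone and marrow. Both neuronal and Schwann cell markers were present in every library. Tubb3, a neuronal tubulin, was at 409 to 524 CPM, a count normalized to the size of its library, in control and 425 to 478 in degenerated libraries, and Mbp, a myelin protein, at 406 to 814 and 426 to 869.

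The mitochondrial genome is a small circle that encodes subunits of respiratory complexes I, III, IV and V, together with the rRNAs and tRNAs that translate them inside the organelle. Each strand is transcribed as a long precursor that is cut apart mainly at the tRNAs, which lie between most of the mRNAs and rRNAs like punctuation, and most of the mRNAs then receive a short poly(A) tail. Neurons and sensory cells of the cochlea rely on oxidative phosphorylation, and aminoglycosides such as kanamycin are known to act on the mitochondrial ribosome. The question addressed here is whether the transcripts of this genome changed in level with SGN degeneration, taking mRNAs, rRNAs and tRNAs apart.

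The count table holds 65535 Ensembl transcripts, beside 141767 in the annotation used here, and lists 17 of the 37 mitochondrial genes. That number is also a row limit of older spreadsheets, so the table used here may hold only a part of the transcripts counted. Each listed mitochondrial gene has a single annotated transcript, but the values of nuclear genes are sums over their listed transcripts only. The listed protein-coding genes were mt-Nd1, mt-Nd3, mt-Nd4, mt-Nd5 and mt-Nd6, all of them core subunits of complex I (NADH dehydrogenase). Of the rRNA genes only mt-Rnr1, the RNA of the small mitochondrial ribosomal subunit, was listed. The 11 listed tRNA genes were those for phenylalanine (mt-Tf), valine (mt-Tv), both leucine tRNAs (mt-Tl1 and mt-Tl2), isoleucine (mt-Ti), methionine (mt-Tm), tryptophan (mt-Tw), alanine (mt-Ta), glycine (mt-Tg), arginine (mt-Tr) and glutamate (mt-Te). The other 20 were not analysed here: the 8 mRNA genes mt-Nd2, mt-Nd4l, mt-Co1, mt-Co2, mt-Co3, mt-Atp6, mt-Atp8 and mt-Cytb, the large rRNA mt-Rnr2 and 11 tRNA genes. By strand, 14 of the 28 genes on the plus strand and 3 of the 9 on the minus strand (mt-Ta, mt-Nd6 and mt-Te) were listed. Of the 17 listed genes, 15 passed the filter on low counts, and mt-Tf and mt-Tv did not.

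The libraries held 12464517 to 15533735 counts in genes, over the listed transcripts only, and every percentage of counts below has that total as its base. Where values come from 3 libraries against 3, the smallest p that an exact permutation test can give is 0.1, so that no such test could pass 0.05. The labels do not say whether the libraries of a group came from separate animals, and p-values therefore measure only the spread between these libraries, which may be technical.

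The annotated genes adjoin each other closely, which bears on how reads of a tRNA and its neighbour can be told apart. The junctions of 4 listed tRNA genes with the mRNA gene that follows them on the same strand are shown because no base lies between them. Each is printed from the first base of the tRNA to base 30 of the mRNA gene, from the GENCODE M21 transcripts of GRCm38, with the first codon of the mRNA in capitals. They lie at chrM:2676-2780 (plus strand), chrM:14041-14139 (minus strand), chrM:9391-9488 (plus strand) and chrM:11671-11771 (plus strand).
mt-Tl1 and mt-Nd1: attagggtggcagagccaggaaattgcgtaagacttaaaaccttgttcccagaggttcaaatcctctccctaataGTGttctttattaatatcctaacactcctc
mt-Te and mt-Nd6: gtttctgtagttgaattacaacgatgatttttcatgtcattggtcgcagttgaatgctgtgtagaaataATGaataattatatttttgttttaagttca
mt-Tg and mt-Nd3: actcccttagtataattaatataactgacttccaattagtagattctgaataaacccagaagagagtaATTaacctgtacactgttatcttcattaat
mt-Tl2 and mt-Nd5: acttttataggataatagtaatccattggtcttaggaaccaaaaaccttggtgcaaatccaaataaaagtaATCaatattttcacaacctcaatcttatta

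Some mitochondrial genes also have near-identical copies in the nuclear genome, and the reads of a copy and its source can be told apart only where the sequences differ. A search of the annotated mouse transcripts for matches of at least 95% identity over at least 50 bases found 11 nuclear copies, of which 8 were listed in the count table. A stretch of 60 bases is shown for 3 pairs, chosen to show a copy with a single difference, a more diverged copy and an identical copy. Bases that differ within a pair are in capitals, and each sequence is read on the strand of the gene. The first pair is mt-Nd3 (chrM:9459-9518, plus strand) with Gm28438 (chr1:24613060-24613119, minus strand), the second mt-Co1 (chrM:5787-5846, plus strand) with Gm13340 (chr2:22589129-22589188, minus strand), and the third mt-Atp6 (chrM:8027-8086, plus strand) with Gm10925 (chr1:24614492-24614551, minus strand), all from GRCm38.
mt-Nd3: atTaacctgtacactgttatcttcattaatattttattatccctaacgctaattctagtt
Gm28438: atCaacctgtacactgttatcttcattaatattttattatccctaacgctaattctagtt
mt-Co1: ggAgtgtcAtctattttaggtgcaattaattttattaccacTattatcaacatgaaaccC
Gm13340: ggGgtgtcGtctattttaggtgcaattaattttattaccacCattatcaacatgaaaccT
mt-Atp6: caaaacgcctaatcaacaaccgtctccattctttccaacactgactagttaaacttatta
Gm10925: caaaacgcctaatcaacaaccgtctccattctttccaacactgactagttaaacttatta

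None of the 5 listed mitochondrial mRNAs was called higher or lower in degenerated than in control libraries, and in each of them the libraries of both groups overlapped. mt-Nd1, mt-Nd4 and mt-Nd6 had lower means and mt-Nd3 and mt-Nd5 higher means in degenerated libraries, by log2 fold changes between -0.24 and 0.12. Together the 5 mRNAs took 3.76% ± 0.629 (SD, n = 3) of the counts in control and 3.51% ± 0.617 (SD, n = 3) in degenerated libraries. The single libraries were at 4.37%, 3.79% and 3.11% in controls 1, 2 and 3 and at 4.18%, 3.38% and 2.97% in degenerated libraries 1, 2 and 3, so that the spread within each group was larger than the difference between them (exact two-sided permutation test, p = 0.7). Without control 1 the difference turned from -0.248 to 0.0578 percentage points, and without degenerated 3 to 0.0237. Counting error was small beside this spread: the 95% Wilson interval of a library's share was at most 0.0206 percentage points wide. In bulk tissue, fewer cells of a type and less RNA per cell cannot be told apart.

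mt-Nd1 lies at chrM:2751-3707 and follows mt-Tl1. Its level was 13868, 14193 and 11758 CPM in control and 13478, 10774 and 9501 CPM in degenerated libraries. Degenerated 2 and 3 were below all controls, while degenerated 1 lay among them. The log2 fold change was -0.24 (SE 0.18, 95% interval -0.67 to 0.19; adjusted p = 0.712 in the edgeR quasi-likelihood test, Benjamini-Hochberg over 14118 genes). Before any correction for length, mt-Nd1 ranked first or second among all genes by counts in each of the 6 libraries.

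mt-Nd4 (chrM:10167-11544), whose first 7 bases overlap the end of mt-Nd4l, was at 14295, 12074 and 9379 CPM in control and at 13363, 10612 and 9102 CPM in degenerated libraries. In both groups replicate 1 was the highest and replicate 3 the lowest. The log2 fold change was -0.11 (SE 0.22, 95% interval -0.65 to 0.43; adjusted p = 0.898). It was 0.03 without control 1 and 0.0066 without degenerated 3, so that its sign rested on single libraries. A nuclear copy, Gm28439 on chromosome 1, which was not listed, is identical to mt-Nd4 over 876 of its 1378 bases, so that reads there cannot be told apart either.

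mt-Nd5 (chrM:11742-13565), the longest of the mitochondrial mRNA genes, was at 10524, 7988 and 5572 CPM in control and at 10376, 8700 and 7134 CPM in degenerated libraries. Controls were spread more widely, with a coefficient of variation of 30.8% against 18.6% in degenerated libraries. The log2 fold change was 0.12 (SE 0.27, 95% interval -0.53 to 0.78; adjusted p = 0.907). Without control 3, the lowest library, it was -0.09, and without degenerated 1 it was -0.04.

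mt-Nd3 (chrM:9459-9806) was nearly constant among controls, at 1243, 1217 and 1256 CPM, a coefficient of variation of 1.61%. In degenerated libraries it was at 1574, 1222 and 1052 CPM, on both sides of the controls, with a coefficient of variation of 20.8%. The log2 fold change was 0.05 (SE 0.16, 95% interval -0.35 to 0.45; adjusted p = 0.940), and -0.14 without degenerated 1. Reads of mt-Nd3 cannot be separated from those of its copy Gm28438 over most of its length, and the sources used here do not say how such reads were counted.

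mt-Nd6 (chrM:13552-14070) is the only mitochondrial mRNA encoded on the minus strand, and its last 14 bases overlap the end of mt-Nd5. It was at 3855, 3173 and 2902 CPM in control and at 3610, 2636 and 2405 CPM in degenerated libraries, with degenerated 2 and 3 below all controls and degenerated 1 between control 1 and control 2. The log2 fold change was -0.20 (SE 0.20, 95% interval -0.69 to 0.29; adjusted p = 0.792). The sources used here do not say whether the counts used the strand, so that reads from the opposite strand of mt-Nd6 cannot be told apart from its own.

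**Figure D1:**
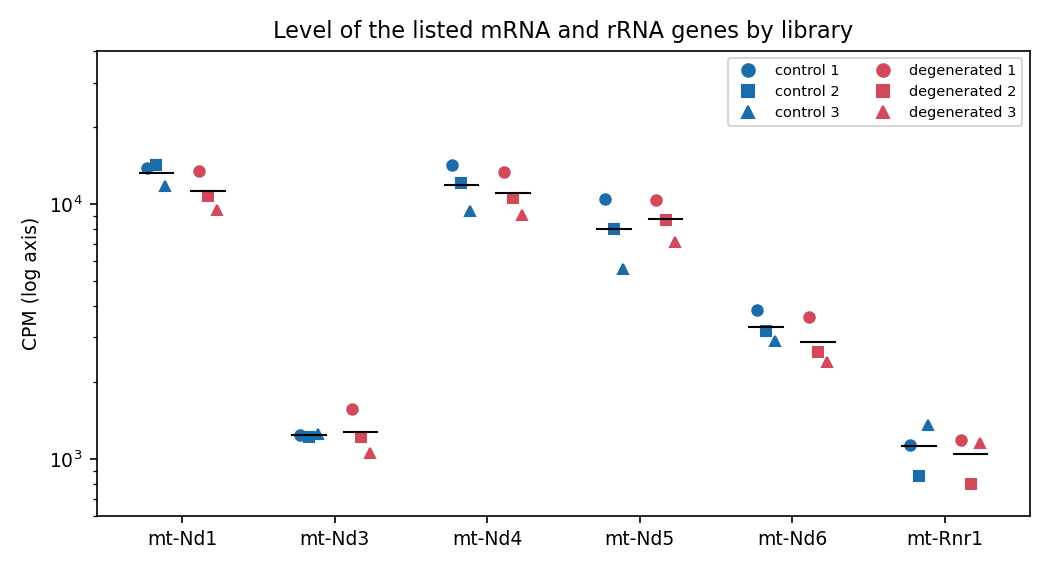
Level of the 5 listed mRNA genes and of mt-Rnr1 in CPM (log axis), 1 point per library with the replicate number as symbol and the group as colour, and black lines at the mean of 3 libraries. Groups overlap for all 6 genes. Replicate 1 of each group lies above replicate 3 in mt-Nd1, mt-Nd4, mt-Nd5 and mt-Nd6, while the control libraries of mt-Nd3 lie between 1217 and 1256 CPM.

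Levels were also taken per kilobase of gene, which removes gene length from a comparison between genes. mt-Nd1 stood highest among the members, with a mean of 12813 CPM per kilobase over the 6 libraries. It was followed by mt-Nd4 with 8324, mt-Nd6 with 5967, mt-Nd5 with 4596, mt-Nd3 with 3624 and mt-Rnr1 with 1135. Each of the first 3 steps in this order was found in 6 of 6 libraries, and mt-Nd5 was above mt-Nd3 in 5 of 6. Across libraries the ranges of neighbouring mRNAs overlapped, for example 9928 to 14831 for mt-Nd1 and 6605 to 10374 for mt-Nd4. Only mt-Rnr1, at 835 to 1428, lay wholly below the gene before it. The places of mt-Nd3 and mt-Nd4 in this order depend on how reads shared with their nuclear copies were counted, which is not known. Gm28438, the copy of mt-Nd3, had a mean of 3642 CPM per kilobase. The kit named in the labels enriches polyadenylated RNA, and the levels in such libraries are those of the RNA carried through this step. This limits the level of the rRNA and of any mRNA without a poly(A) tail. The level of mt-Nd6 may also include reads from the opposite strand, as stated above.

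The make-up of the mRNA pool was compared next, since a ratio within a library does not depend on how libraries are scaled. mt-Nd5 made up 24.0%, 20.7% and 18.1% of the counts of the 5 mRNAs in control and 24.5%, 25.6% and 24.4% in degenerated libraries. All degenerated libraries were above all controls, though control 1 was close to degenerated 1 and 3, and the mean difference was 3.93 percentage points (exact two-sided permutation test, p = 0.1, the smallest possible; Benjamini-Hochberg adjusted p = 0.5 over the 5 shares). mt-Nd1 made up 31.7%, 36.7% and 38.1% of the pool in control and 31.8%, 31.7% and 32.5% in degenerated libraries, with control 1 below all degenerated libraries (p = 0.4, exact permutation test). The shares of mt-Nd3, mt-Nd4 and mt-Nd6 overlapped between groups, with p between 0.3 and 0.9 in the exact permutation test.

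Relative to mt-Nd1 in the same library, mt-Nd3 was at 0.0896, 0.0858 and 0.107 counts per mt-Nd1 count in control and at 0.117, 0.113 and 0.111 in degenerated libraries. These groups did not overlap either (exact two-sided permutation test, p = 0.1; adjusted p = 0.5 over the 5 ratios to mt-Nd1). The ratio of mt-Nd5 to mt-Nd1 was 0.759, 0.563 and 0.474 in control and 0.770, 0.807 and 0.751 in degenerated libraries, with control 1 inside the degenerated range (p = 0.2, exact permutation test). The other 3 ratios overlapped, with p between 0.4 and 0.9 in the exact permutation test.

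Within the groups the pool was more alike among degenerated than among control libraries. Over the 5 shares, SDs were 0.0636 to 0.680 percentage points in degenerated and 0.596 to 3.38 in control libraries, and this spread was not tested. In control 1 the mt-Nd1 and mt-Nd5 shares were the nearest of the controls to the degenerated libraries.

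**Figure D2:**
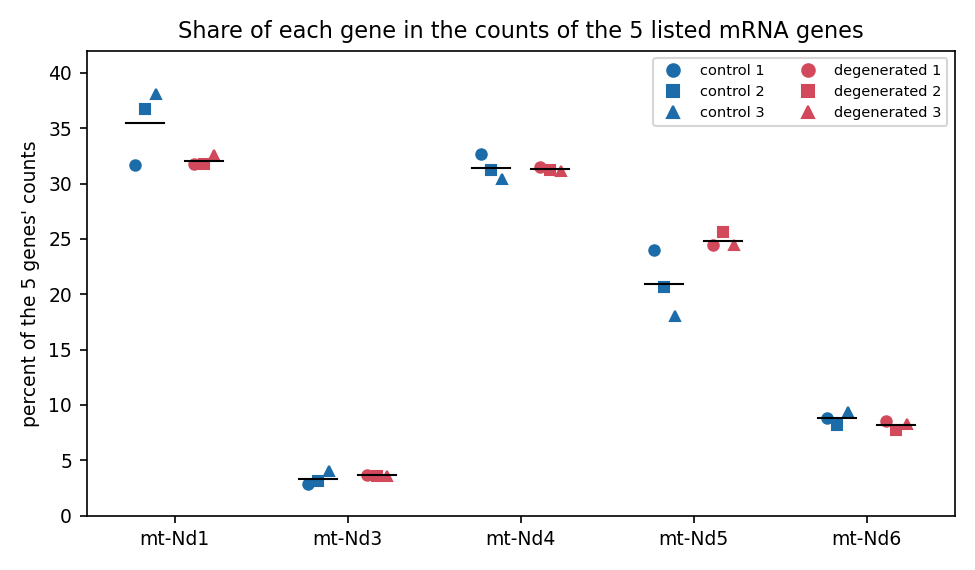
Share of each listed mRNA gene in the summed counts of the 5 genes, in percent, by library, with black lines at the mean of 3 libraries. Degenerated libraries lie close together at each gene, and for mt-Nd5 they lie at 24.4% to 25.6%, above the controls at 18.1% to 24.0%.

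The small rRNA, mt-Rnr1 (chrM:70-1024), did not differ detectably between groups. It was at 1139, 860 and 1363 CPM in control and at 1189, 797 and 1156 CPM in degenerated libraries, with replicate 2 the lowest of each group. The log2 fold change was -0.10 (SE 0.23, 95% interval -0.66 to 0.47; adjusted p = 0.913, the edgeR test). It was 0.06 without control 3 and 0.05 without degenerated 2. As a share of counts, mt-Rnr1 took 0.112% ± 0.0266 (SD, n = 3) in control and 0.105% ± 0.0219 (SD, n = 3) in degenerated libraries, a difference within the spread of either group (exact permutation test, p = 0.7).

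The 9 tested tRNA genes also gave no call, 4 having higher and 5 lower means in degenerated libraries. The 11 listed tRNA genes together took 0.0342% ± 0.00546 (SD, n = 3) of counts in control and 0.0304% ± 0.00547 (SD, n = 3) in degenerated libraries (exact permutation test, p = 0.5), or 3317 to 6125 counts per library. mt-Tl1 and mt-Te held 79.4% to 88.0% of these, and the rest rested on few counts. The mature tRNAs are 59 to 75 bases long, and the counts cannot tell mature molecules from precursors or from reads that reach in from a neighbouring gene.

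mt-Te, the glutamate tRNA that directly precedes mt-Nd6 on the minus strand (chrM:14071-14139), was at 236, 176 and 169 CPM in control and at 195, 140 and 124 CPM in degenerated libraries. Degenerated 2 and 3 were below all controls and degenerated 1 was among them, with a log2 fold change of -0.34 (SE 0.22, 95% interval -0.88 to 0.20; adjusted p = 0.669, the edgeR test). mt-Tl1, a leucine tRNA between mt-Rnr2 and mt-Nd1 (chrM:2676-2750), was at 121, 95.7 and 70.6 CPM in control and at 121, 97.3 and 95.4 CPM in degenerated libraries. Its groups overlapped, with a log2 fold change of 0.13 (SE 0.22, 95% interval -0.41 to 0.67; adjusted p = 0.879) that was -0.05 without control 3 and -0.0022 without degenerated 1.

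Among the tested members, the log2 fold change farthest from 0 was that of mt-Tl2, the other leucine tRNA (chrM:11671-11741), with 29, 54 and 86 counts in control and 20, 42 and 15 in degenerated libraries. Control 1 lay below degenerated 2, so that the groups overlapped, and the log2 fold change of -1.02 had a wide interval (SE 0.56, 95% interval -2.39 to 0.34; adjusted p = 0.618 in the edgeR test). mt-Tr, the arginine tRNA (chrM:9808-9875), had 26, 22 and 31 counts in control and 42, 37 and 24 in degenerated libraries, with a log2 fold change of 0.49 (95% interval -0.32 to 1.29; adjusted p = 0.687). At these depths a change of the size of either estimate could not be told from the spread between libraries.

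mt-Tg, the glycine tRNA before mt-Nd3 (chrM:9391-9458), had 4 counts in control 1 against 52 and 89 in controls 2 and 3 and 59, 73 and 37 in degenerated libraries. Control 1 thus stood apart at this gene, and its log2 fold change of 0.33 (95% interval -1.94 to 2.60) was -0.22 without that library. The neighbouring mt-Nd3 was not low in control 1. Of the remaining tested tRNAs, mt-Ta (alanine), mt-Ti (isoleucine) and mt-Tw (tryptophan) had log2 fold changes of -0.41, -0.44 and -0.13, and mt-Tm (methionine) of 0.17, which was -0.0035 without control 3. Their adjusted p-values were between 0.708 and 0.903 in the edgeR test. mt-Tf had 9, 4 and 7 counts in control and 5, 4 and 4 in degenerated libraries, and mt-Tv 7, 5 and 4 against 9, 8 and 11, both under the filter and not tested.

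Over all classes, 0 of the 15 tested members passed the call rule, an unadjusted p under 0.01 and a log2 fold change beyond 0.2 in either direction, which called 2.73% of the 14118 genes tested. None of the 15 had groups that did not overlap, against 17.7% of all genes tested, 10.3% with higher and 7.37% with lower degenerated libraries. None had an unadjusted p under 0.05, against 9.68% of all genes, and in the edgeR test 0 genes in all passed an adjusted p under 0.05 (DESeq2 gave 383). The median log2 fold change of the 15 members was -0.11, beside -0.003 over all genes tested. Among the mRNAs, the 95% intervals allowed a level in degenerated libraries between 0.622 times that of controls in mt-Nd6 and 1.71 times in mt-Nd5 at the extremes, and for mt-Nd3, the member with the narrowest interval, between 0.785 and 1.37 times.

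**Figure D3:**
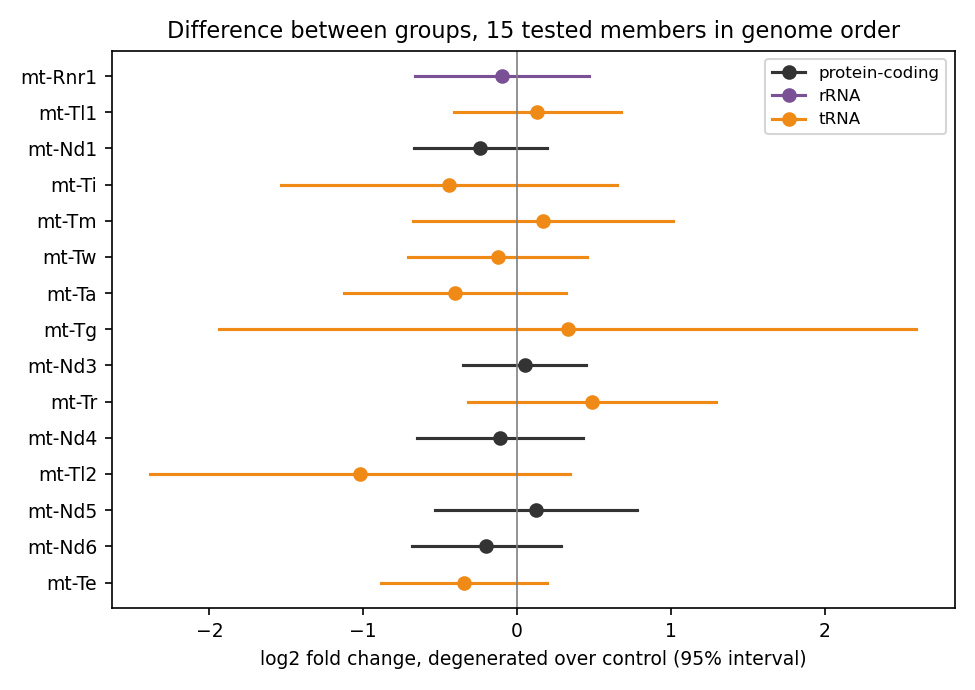
log2 fold change of degenerated over control libraries for the 15 tested members in genome order, with 95% intervals from the edgeR fit and colours for the class of gene. Every interval holds 0, and those of the tRNAs with few counts, mt-Tg and mt-Tl2, are the widest.

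Against the gene that adjoins it, the level of a tRNA gene ranged widely, and 4 of the 8 pairs on the same strand separated the groups. Among single genes tested, 17.7% separated the groups, and the share for ratios of other genes was not computed. The pairs are not independent, since mt-Rnr1, mt-Nd1 and mt-Nd3 each serve as neighbour more than once. Per kilobase, mt-Te was at 46.1%, 41.8% and 43.9% of mt-Nd6 in control and at 40.6%, 40.0% and 38.7% in degenerated libraries, all of which were lower. mt-Tl1 was at 11.1%, 8.61% and 7.66% of mt-Nd1 in control and at 11.5%, 11.5% and 12.8% in degenerated libraries, all of which were higher. The direction thus differed between these pairs, both of which adjoin with no base between them. mt-Te and mt-Nd6 both lie on the minus strand, and reads from the opposite strand cannot be told apart from those of either gene.

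The other pairs that separated the groups rested on fewer counts. mt-Tr was at 0.708%, 0.654% and 0.806% of mt-Nd3 in control and at 0.934%, 1.09% and 0.921% in degenerated libraries, and mt-Tv, with at most 11 counts in a library, at 0.563%, 0.569% and 0.259% of mt-Rnr1 against 0.717%, 0.978% and 1.04%. Each of these 4 pairs had p = 0.1 in the exact two-sided permutation test, the smallest possible, and an adjusted p of 0.2 over the 8 pairs. mt-Tg was at 0.109% to 2.31% of mt-Nd3 and mt-Tl2 at 0.339% to 2.53% of mt-Nd5, and their groups overlapped, although they adjoin the following mRNA as closely as mt-Te and mt-Tl1 do in the junctions printed above. Across 6 libraries, mt-Te was the tRNA gene with the highest level per kilobase, with a mean of 2514 CPM per kilobase, then mt-Tl1 with 1336, mt-Ta with 307, mt-Tw with 156 and mt-Tm with 92.9. Up to mt-Tm each was above the next in 6 of 6 libraries with no overlap of their ranges. Below these, the ranges of mt-Tg, mt-Ti, mt-Tl2 and mt-Tr overlapped, and mt-Tv and mt-Tf came last.

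**Figure D4:**
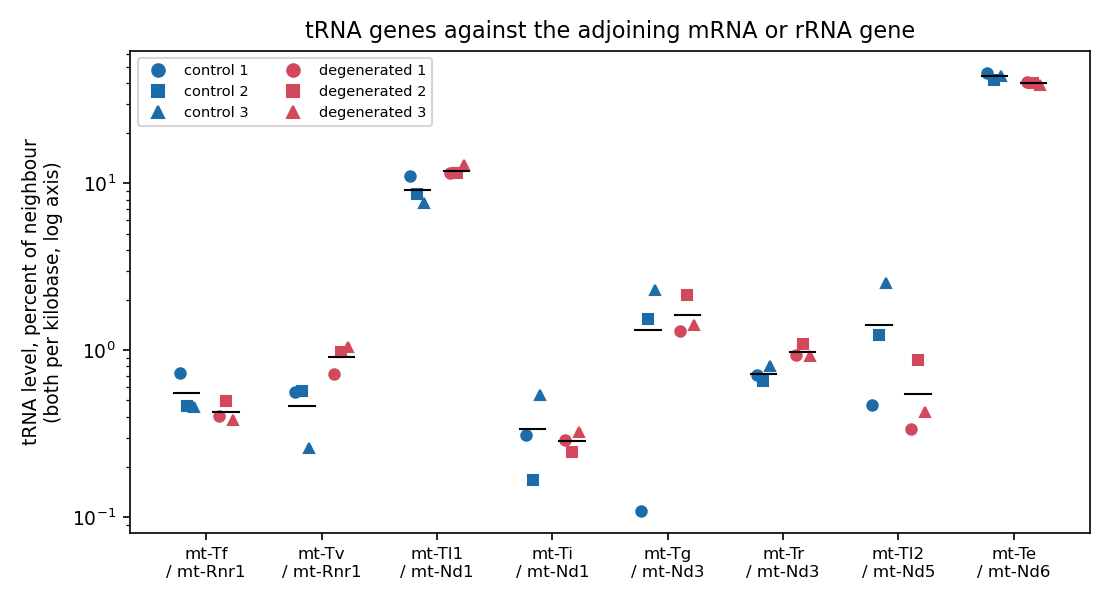
Level of each tRNA gene as a percentage of the adjoining mRNA or rRNA gene on the same strand, both per kilobase (log axis), by library, with black lines at the mean of 3 libraries. mt-Te is at 38.7% to 46.1% of mt-Nd6, while mt-Tg and mt-Tl2, which adjoin their mRNA as closely, are at 2.53% or less.

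Nuclear copies of mitochondrial sequence held counts of the same order as the mitochondrial genes. The 8 listed copies took 2.28% ± 0.114 (SD, n = 3) of counts in control and 2.15% ± 0.440 (SD, n = 3) in degenerated libraries (exact permutation test, p = 0.7), beside 3.91% ± 0.622 and 3.65% ± 0.627 for the 17 listed members. Of the copies, 7 lie side by side within 4663 bases of chromosome 1 (GRCm38, 24611535 to 24616197), and 4 of these were listed. Gm10925 had 933115 counts over the 6 libraries and Gm28437 757333, and they match mt-Atp6 and mt-Co3, neither of which was listed, at 100% over 678 and 783 bases. Gm28438 had 109001 counts and differs from mt-Nd3 over 345 bases by the single substitution T3C, counted from 1 at the first base of mt-Nd3.

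The copies, like the members, did not differ detectably between groups. Gm10925 was at 12454, 11720 and 9502 CPM in control and at 12739, 9620 and 8492 CPM in degenerated libraries, a log2 fold change of -0.13 (SE 0.20, 95% interval -0.62 to 0.36; adjusted p = 0.870, the edgeR test). Gm28437 was at 8355, 9180 and 9548 CPM in control and at 10688, 7469 and 7057 CPM in degenerated libraries, a log2 fold change of -0.10 (SE 0.19, 95% interval -0.57 to 0.37; adjusted p = 0.890). In both the groups overlapped. Reads of identical sequence cannot be assigned to the nuclear or the mitochondrial place, so these counts are those of either.

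mt-Nd3 and Gm28438 had almost the same count in every library. In control 1, 2 and 3 they had 18781 and 19089, 17205 and 17107, and 19689 and 19502 counts, and in degenerated 1, 2 and 3 they had 23017 and 22814, 17354 and 17212, and 13335 and 13277. The copy was thus between 0.991 and 1.02 times the mitochondrial gene. Its log2 fold change was 0.04 (SE 0.16), beside 0.05 (SE 0.16) for mt-Nd3.

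Copies with more differences had fewer counts, and they are named after their values were seen. On chromosome 2, Gm13340 matches mt-Co1 at 97.6% with 37 substitutions over 1545 bases and had 12101 counts over the 6 libraries, Gm13341 matches mt-Co2 at 95.9% and had 9105, and Gm13339 matches mt-Nd2 at 96.7% and had 1915. Gm4076 on chromosome 13 matches mt-Nd5 at 95.2% and had 113. Gm10222, the remaining listed copy on chromosome 1, matches mt-Nd4l at 100% over 294 bases, had 104976 counts and was at 1471, 1144 and 821 CPM in control and at 1540, 1266 and 1045 CPM in degenerated libraries. Per kilobase, Gm10925 had a mean over the 6 libraries of 15862 CPM and Gm28437 of 11132, beside 12813 for mt-Nd1, while Gm13340 lay between 54.0 and 124 CPM per kilobase. None of the 8 copies was called.

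**Figure D5:**
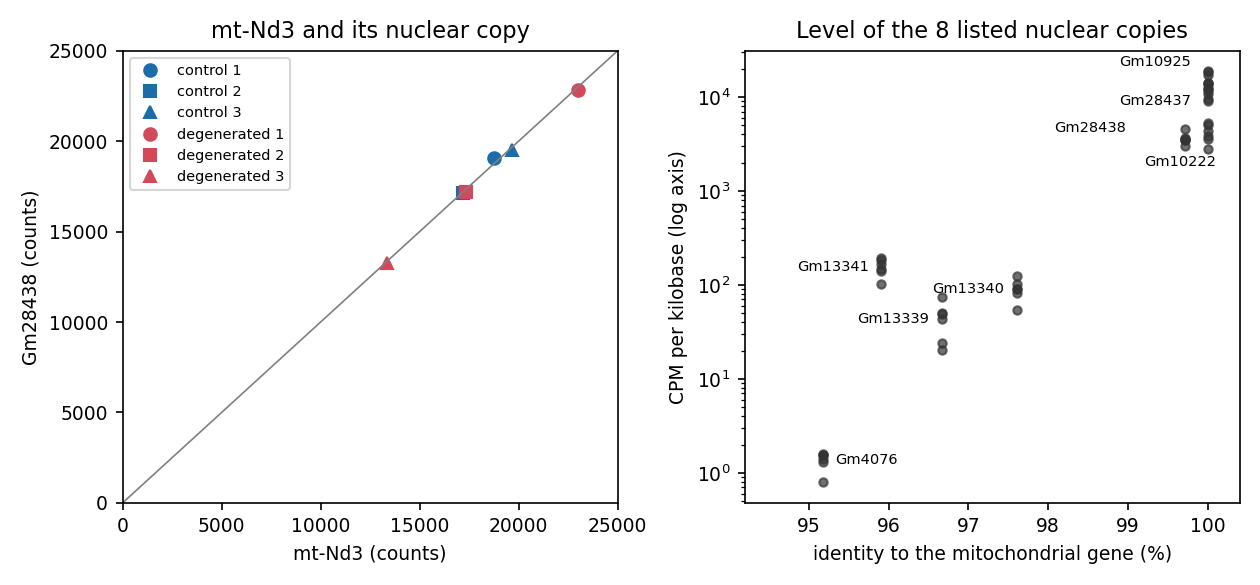
Left, counts of mt-Nd3 and of its nuclear copy Gm28438, 1 point per library, with a grey line where both are equal. Right, level of the 8 listed nuclear copies in CPM per kilobase (log axis, 1 point per library) against their identity to the mitochondrial gene in percent. Points of mt-Nd3 lie on the line of equal counts, and copies at 99.71% identity or more lie at 2792 CPM per kilobase or above, while the others lie at 192 or below.

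Of the nuclear genes that make and maintain mitochondrial RNA, 1 was called. Of 81 such genes, covering transcription and replication of the mitochondrial genome, RNA processing, RNA stability, translation and regulators of biogenesis, 68 were tested, with 34 higher and 34 lower means and a median log2 fold change of 0.006. Trnt1, which adds the CCA end to tRNAs, was the only one called, 1 of 68, beside 2.01% of all genes tested called higher. It was at 70.1, 79.0 and 87.4 CPM in control and at 119, 106 and 106 CPM in degenerated libraries, all of them higher, with a log2 fold change of 0.49 (SE 0.13, adjusted p = 0.365 in the edgeR test). Its sum rests on 5 of 8 annotated transcripts. This call was lost in limma-voom, with upper-quartile factors, with library sizes from nuclear genes and in 5 of the 6 fits without 1 library.

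The other regulators looked at by name gave no call, and of their annotated transcripts the table lists 1 of 5 for Tfam, 6 of 13 for Polrmt, 2 of 7 for Lrpprc and 3 of 4 for Slirp. Tfam, which packages the mitochondrial genome and starts its transcription, was at 72.0, 72.4 and 86.2 CPM in control and at 61.2, 63.0 and 69.0 CPM in degenerated libraries. These did not overlap, but the log2 fold change of -0.26 (SE 0.14) had an adjusted p of 0.612 in the edgeR test. Polrmt, the mitochondrial RNA polymerase, had a log2 fold change of -0.07 (SE 0.53), and Lrpprc and Slirp, which form a complex that stabilises mitochondrial mRNAs, of -0.14 (SE 0.14) and -0.12 (SE 0.21).

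The nuclear subunits of complexes I, III, IV and V, the partners of the proteins encoded in mitochondria, were lower in most cases. Of 66 tested subunits, 61 had a lower mean in degenerated libraries, with a median log2 fold change of -0.24, and the groups of 22 did not overlap, all with lower degenerated libraries, beside 7.37% of all genes tested. Only Ndufs7, a subunit of complex I, and Uqcrc1, a core protein of complex III, were called, both lower (0.715% of all genes tested were called lower). Ndufs7 was at 135, 147 and 147 CPM in control and at 102, 105 and 112 CPM in degenerated libraries (log2 fold change -0.43, SE 0.10, adjusted p = 0.338 in the edgeR test), and Uqcrc1 at 429, 441 and 441 against 360, 326 and 340 CPM (log2 fold change -0.35, SE 0.09, adjusted p = 0.358). These values rest on 3 of 6 transcripts for Ndufs7 and 4 of 8 for Uqcrc1. Neither was called without control 3 or without any single degenerated library. DESeq2 called 4 of these 66 subunits, all lower, beside 785 of all 14118 genes tested, 306 of them lower.

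Within complex I, both genomes could be set side by side. The 32 tested nuclear subunits summed to 3632, 3336 and 4112 CPM in control and to 3227, 3092 and 2955 CPM in degenerated libraries, without overlap (exact two-sided permutation test, p = 0.1, the smallest possible). The 5 mitochondrial subunits summed to 43786, 38644 and 30867 CPM in control and to 42402, 33944 and 29194 CPM in degenerated libraries, with overlap (p = 0.7, exact permutation test). The ratio of the mitochondrial to the nuclear sum was 12.1, 11.6 and 7.51 in control and 13.1, 10.98 and 9.88 in degenerated libraries, so that a difference between the genomes in their response was not detectable here (p = 0.7, exact permutation test).

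Markers of the cell types in the tissue moved between groups or libraries as well, and their part in these results was not tested. Summed over 11 of 11 neuronal markers, the level was 10928 to 14050 CPM in control and 6500 to 9569 in degenerated libraries, with none of the markers at 0. Of these 11, 7 had lower and 4 higher means in degenerated libraries, and 1 was called lower. Without overlap of the groups, 5 were lower and 1 was higher. Skeletal muscle markers (10 of 11 listed, 4 tested, 1 called lower) summed to 732 to 1310 and 330 to 522 CPM. Myh2 was at 0 in all libraries, and the marker with the highest level was Pvalb. The study names Pvalb as a neuron-specific marker, so the sum need not reflect muscle alone. Markers of outer hair cells, the sensory cells that the treatment destroys, summed to 176 to 214 CPM in control and 41.5 to 49.4 in degenerated libraries (4 of 4 listed, none at 0). Ocm had the highest level of the 4. Without overlap of the groups, 3 were lower, 2 of them called, and 1 was higher. General hair cell markers (6 of 6 listed, 5 tested, 0 called) summed to 563 to 813 CPM in control and 497 to 600 in degenerated libraries, with overlap. Macrophage markers summed higher in degenerated libraries, at 466 to 613 CPM against 331 to 394 in control (5 of 7 listed, none at 0). Of 4 tested, 3 had higher means and 1 a lower mean, and 2 were called higher. Bone markers summed lower, at 955 to 1474 CPM against 1645 to 2032 (5 of 8 listed, none at 0). All 4 tested had lower means, and 1 was called lower. Over all genes tested, 2.01% were called higher and 0.715% lower. Neutrophil markers (5 of 7 listed, none at 0) were at 243, 12794 and 6342 CPM in control and at 580, 1824 and 4468 CPM in degenerated libraries. They were lowest in replicate 1 of each group, where mitochondrial mRNAs took the largest share of counts. Control 2, however, had both a higher neutrophil sum and a larger mRNA share than control 3 (3.79% against 3.11%). Erythroid markers (5 of 6 listed, none at 0) were at 6400, 41372 and 21417 CPM in control and at 7215, 3479 and 16706 CPM in degenerated libraries.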

How the data were processed

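The authors aligned the reads with Hisat2 (version 2.1.0) and evaluated expression with StringTie (version 1.3.3b), per the study's methods, while the submitters' processing notes name Bowtie 0.12.2 and the builds mm8 and mm10 without a role. The deposited table holds raw counts per Ensembl transcript, not normalized, and the sources used here do not give the counting step or the treatment of reads with several matches. Transcripts were matched by ID to GENCODE M21 (GRCm38), 263 without a match (0.125% of counts) were left out, and counts were added up per gene.

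The robust quasi-likelihood test of edgeR 4.0.16 (R 4.3.3) was run after filterByExpr, with TMM factors of 0.983 to 1.02, on 3 degenerated against 3 control libraries without covariates, and genes were called at an unadjusted p under 0.01 and a log2 fold change beyond 0.2 in either direction, or at a Benjamini-Hochberg adjusted p under 0.05. Intervals cover 95%, and those of shares cover counting error only. CPM use the TMM factors. Shares and ratios were compared with exact two-sided permutation tests (SciPy 1.17.1). Nuclear copies were found with blastn 2.17.0. The steps were tested on simulated data. Alternatives were DESeq2 1.42.0, limma-voom (limma 3.58.1), other size factors, other filters on low counts, a replicate block and fits that leave out 1 library each. Library sizes without mitochondrial genes and copies were added after the data were seen.

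The members, lists and tests were chosen with earlier results of these data known. Any mitochondrial gene could be named; of the nuclear lists Polrmt, Tfam, Lrpprc, Slirp and called genes, and of the copies the 3 with most counts.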

Additional observations from a re-analysis of the deposited data

How the results depend on the processing

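No mitochondrial gene was called in any of the 17 alternatives run for the 15 tested members. Of 255 log2 fold changes, 244 kept their direction, and the smallest adjusted p was 0.411, for mt-Tl2 without control 1. The 11 that reversed all came from leaving out 1 library: without control 1 mt-Nd4 was at 0.028 and mt-Tg at -0.22, without control 3 mt-Rnr1 at 0.061, mt-Nd5 at -0.092, mt-Tl1 at -0.054 and mt-Tm at -0.0035, without degenerated 1 mt-Nd3 at -0.14, mt-Nd5 at -0.04 and mt-Tl1 at -0.0022, without degenerated 2 mt-Rnr1 at 0.05, and without degenerated 3 mt-Nd4 at 0.0066. With 1 library left out, values ran from -0.26 to 0.061 in mt-Rnr1, -0.14 to 0.17 in mt-Nd3, -0.29 to 0.028 in mt-Nd4, -0.092 to 0.35 in mt-Nd5, -0.054 to 0.32 in mt-Tl1, -0.0035 to 0.43 in mt-Tm and -0.22 to 1.01 in mt-Tg. They kept their direction but moved by over 1.5 times in mt-Nd1 (-0.40 to -0.13), mt-Nd6 (-0.41 to -0.086), mt-Te (-0.57 to -0.19), mt-Ti (-0.74 to -0.067), mt-Ta (-0.67 to -0.21), mt-Tw (-0.22 to -0.064) and mt-Tl2 (-1.56 to -0.65). The cause was not tested.

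Counting the listed nuclear copies with the protein-coding genes, which was chosen after seeing the data, took the difference in their share from -0.248 to -0.380 percentage points. With 1 library left out, the difference in the protein-coding share was between -0.584 and 0.0578 percentage points, positive without control 1 (0.0578) and degenerated 3 (0.0237), that of the rRNA share between -0.0209 and 0.00566, positive without control 3 (0.00566) and degenerated 2 (0.00549), and that of the tRNA share between -0.00696 and -0.000688. Over all genes, 385 were called, 785 with DESeq2 (479 higher, 61.0% of the calls against 73.8%) and 258 to 497 with 1 library left out. Nuclear genes of mitochondrial gene expression called fell from 1 to 0 in limma-voom, with upper-quartile factors, with sizes from nuclear genes, with sizes without mitochondrial genes and copies, and were 0 to 1 with 1 library left out. Respiratory chain genes called were 4 with DESeq2 and 0 to 2 with 1 library left out.

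The replicate numbers did not pair the samples: deviations of same-numbered libraries correlated at 0.154, -0.083 and 0.055, and not every library correlated best with its own number. With the replicate number as a block, 218 genes were called over all genes, 0 of mitochondrial gene expression, 0 of the respiratory chain and 0 members. In this fit mt-Te had an unadjusted p of 0.0297 in the edgeR test, the smallest of any member in the alternatives (adjusted p = 0.615).

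Few counts limit the tRNA genes other than mt-Tl1 and mt-Te, and shared sequence limits mt-Nd3, mt-Nd4 and the nuclear copies, and sums over the listed transcripts limit nuclear genes.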
